A study of Mus musculus with 4 samples.

Results

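The 6 genes described here encode selenoproteins that reside in the endoplasmic reticulum (ER). They were found by gene symbol among the 7000 genes listed in the deposited liver RNA-Seq comparison, and all 6 symbols were present. Selk (selenoprotein K) and Sepn1 (selenoprotein N) carry their usual names, whereas Sels is listed as Vimp, Selt as 2810407C02Rik and Seli as Ept1. Sep15 is listed as 15-Sep, a symbol that was turned into a date. Liver RNA came from male wild-type FVB/N mice given torula yeast-based diets from weaning for 6 weeks, 2 mice (1 and 2) with 0 ppm added Se (0 Se) and 2 mice (4 and 5) with 0.1 ppm Se as sodium selenite (0.1 Se). The values used here are the authors' mean level of each gene over the 4 libraries, as log2 CPM (the read count of a gene scaled to the total of its library), and the length of its RefSeq mRNA. No column holds a single mouse, and the columns that compare the diets were not used here. The levels below therefore describe liver across both diets, with no error between mice and no depth of single libraries, and the difference between 0 Se and 0.1 Se mice is not described.

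Selenoproteins contain selenocysteine, the amino acid form of Se, which is inserted at a UGA codon that would otherwise end translation. Insertion depends on a stem-loop in the 3′ untranslated region of the mRNA. The ER is where secreted and membrane proteins fold, and in liver it carries the load of plasma protein secretion. Several selenoproteins sit in its membrane or lumen. Selk and Sels are small membrane proteins that join the Derlin complex, through which misfolded proteins are pulled out of the ER by the ATPase p97 (Vcp) for degradation. Sep15 is a luminal oxidoreductase held in the ER by UDP-glucose:glycoprotein glucosyltransferase (Uggt1), the folding sensor for glycoproteins. Selt is a thioredoxin-like membrane protein, Sepn1 a membrane glycoprotein that takes part in calcium and redox control and is best known from muscle disease, and Seli is the ethanolamine phosphotransferase that makes phosphatidylethanolamine.

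The place of the selenocysteine codon sets these proteins apart from one another, so the coding sequence around it is shown for 5 of the 6. Each line gives up to 30 bases before and up to 30 bases after the codon, 5′ to 3′ in the sense of the mRNA with T for U, and ends at the stop codon where that comes first. The capitals mark the selenocysteine codon. The sequences are those of the GENCODE vM1 transcripts on NCBIM37, the same assembly as mm9.
Selk: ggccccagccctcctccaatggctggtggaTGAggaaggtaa
Sels: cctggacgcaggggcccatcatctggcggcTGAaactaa
Sep15: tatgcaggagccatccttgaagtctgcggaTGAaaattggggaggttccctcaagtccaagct
Selt: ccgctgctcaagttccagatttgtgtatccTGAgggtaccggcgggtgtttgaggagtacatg
Seli: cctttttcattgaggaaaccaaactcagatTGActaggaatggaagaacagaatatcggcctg

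In Selk, Sels and Seli the codon lay at the very end of the coding sequence. It was codon 92 of 94 in Selk, 189 of 190 in Sels and 388 of 398 in Seli, leaving 2, 1 and 10 codons after it. It lay further inside at codon 93 of 162 in Sep15 and 49 of 195 in Selt. The nearest cysteine codon came 2 codons earlier in Sep15, and in Selt it came 3 codons earlier, the spacing of a thioredoxin-like CxxC site. In the C-terminal group it was 14 codons upstream in Sels and 71 in Seli, and the coding sequence of Selk held 0 cysteine codons. The base after TGA was G in Selk and Selt, A in Sels and Sep15, and C in Seli.

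None of the 6 mRNAs ends its reading frame with TGA. Selk, Sels, Sep15 and Seli stop at TAA, and Selt and Sepn1 stop at TAG. By comparison, the annotated coding sequence ends in TGA for 50.7% of the 6885 listed genes with an annotated stop codon. It does so for 3 of 11 other listed selenoprotein genes (Sephs2, Sepw1 and Txnrd1) and 7 of 23 listed ER chaperone genes. In those selenoprotein genes a final TGA was not told apart from a selenocysteine codon, so their count is uncertain. With 6 genes the comparison is a description, and no test was made of it.

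The genes are spread over 5 chromosomes, and the coordinates are those of NCBIM37. Selk lies on the plus strand at chr14:30781494-30788260 and has 5 exons, with the selenocysteine codon in exon 4 at chr14:30786626-30786628. Sels lies at chr7:73224535-73234298 on the plus strand, and its codon is in the last of 6 exons at chr7:73233730-73233732. Sep15 and Selt share a chromosome but not a neighbourhood. Sep15 spans chr3:144233268-144260644, with the codon in exon 3 of 5 at chr3:144253609-144253611, and Selt spans chr3:58380558-58397055, with the codon in exon 2 of 6 at chr3:58389160-58389162, both on the plus strand. Sepn1 lies on the minus strand at chr4:134093807-134108081 and has 12 exons. Seli lies on the plus strand at chr5:30559121-30598558, with the codon in the last of 10 exons at chr5:30593510-30593512. Between the codon and the last exon junction there were 5 bases in Selk, 78 in Sep15 and 470 in Selt.

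**Figure D1:**
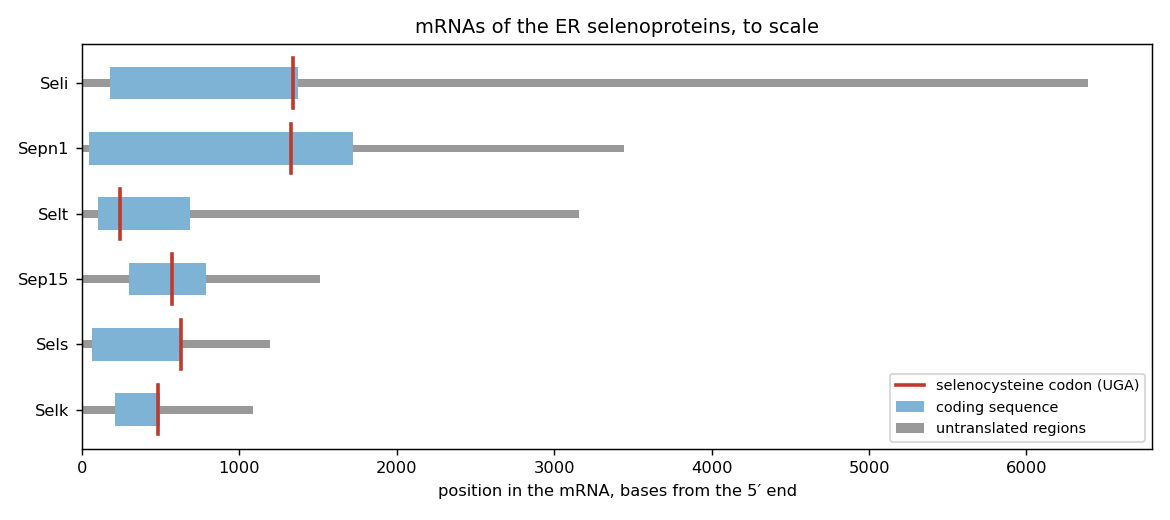
The mRNAs of the 6 ER selenoproteins are drawn to scale from the 5′ end, in bases, with the coding sequence as a blue box, the untranslated regions as a grey line and the selenocysteine codon as a red mark. The mark sits at the end of the box in Selk, Sels and Seli and inside it in Sep15, Selt and Sepn1, and the 3′ untranslated regions of Selt and Seli take up 78.2% and 78.5% of their transcripts.

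The mRNAs differ widely in length. The deposited lengths run from 1018 bases for Selk and 1191 for Sels over 1509 for Sep15, 3445 for Sepn1 and 3546 for Selt to 6769 for Seli, against a median of 2959.5 bases over the listed genes. Most of this range lies in the 3′ untranslated region, which measured 560 bases in Sels, 595 in Selk, 726 in Sep15, 1724 in Sepn1, 2468 in Selt and 5013 in Seli. It made up 46.7% of the Sels transcript, the lowest share of the 6. The median share of the 6 was 52.3%, compared with 35.8% for all listed genes with a transcript and 35.7% for the chaperones. For the 11 other listed selenoprotein genes the median share was 28.0%, with a range from 0 to 52.9%. The coding sequences of Selk, Sep15, Sels and Selt, from 285 to 588 bases, are shorter than those of most listed genes, and that of Sepn1 is the longest at 1674 bases. The annotated transcript has the deposited length for Sepn1 and nearly so for Sels (1198 bases) and Sep15 (1514 bases). It is 1090 bases long for Selk, 3157 for Selt and 6388 for Seli, and for these 3 the untranslated regions are approximate.

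Before reading the levels, the labelled tissue was checked against marker genes. The 6 listed hepatocyte markers of 10 had mean levels of 595 to 7619 CPM per kilobase, led by Apoa1 and Fgb, while the 4 skeletal muscle markers were not among the listed genes. The list was ordered by the p-value of the authors' comparison and ends at 7000 genes, so a gene that is not listed, such as the hepatocyte marker Alb, is not thereby shown to be absent from liver. For the same reason, medians and percentages of listed genes refer to this selection and not to all genes expressed in liver. Together the listed genes account for 64.8% of all counts on the CPM scale.

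Of the ER selenoproteins, Sep15 had the highest mean level, at 189 CPM. Selt followed at 149 CPM and Seli at 101 CPM, and then came Sels at 63.7 CPM and Selk at 50.5 CPM. Sepn1 stood far below the others at 1.21 CPM. The median listed gene had 18.7 CPM, and 5 of the 6 lay above it. Sep15 was higher than 93.3% of the listed genes, Selt than 91.3%, Seli than 86.8%, Sels than 79.8% and Selk than 75.3%, whereas Sepn1 exceeded only 1.23%. The 6 mRNAs together held 554 CPM, of which Sep15 took 34.1% and Selt 26.9%.

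Long mRNAs yield more fragments for the same number of molecules, so genes were compared with each other as CPM per kilobase, the mean CPM divided by the deposited length in kilobases. On this scale Sep15 again led with 125 CPM per kilobase. Sels had 53.5, Selk 49.6 and Selt 42.1 CPM per kilobase, and these 3 lay within a range of 1.27-fold of one another. Seli, with the longest mRNA, dropped to 14.9 CPM per kilobase, and Sepn1 had 0.350. The ratio of Sep15 to Sels, the next in order, was 2.34, that of Selt to Seli 2.83, and that of Seli to Sepn1 42.5. Whether neighbours in this order differ beyond the spread between mice cannot be told from a mean alone. The near-equal levels of Sels, Selk and Selt in particular have no error to set them against. The paper reports that Selk was among the liver selenoprotein mRNAs that rose most with adequate Se, while most others changed less. The Selk mean thus covers unlike diet groups. Whether Selk was near Sels and Selt within either diet was not tested.

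**Figure D2:**
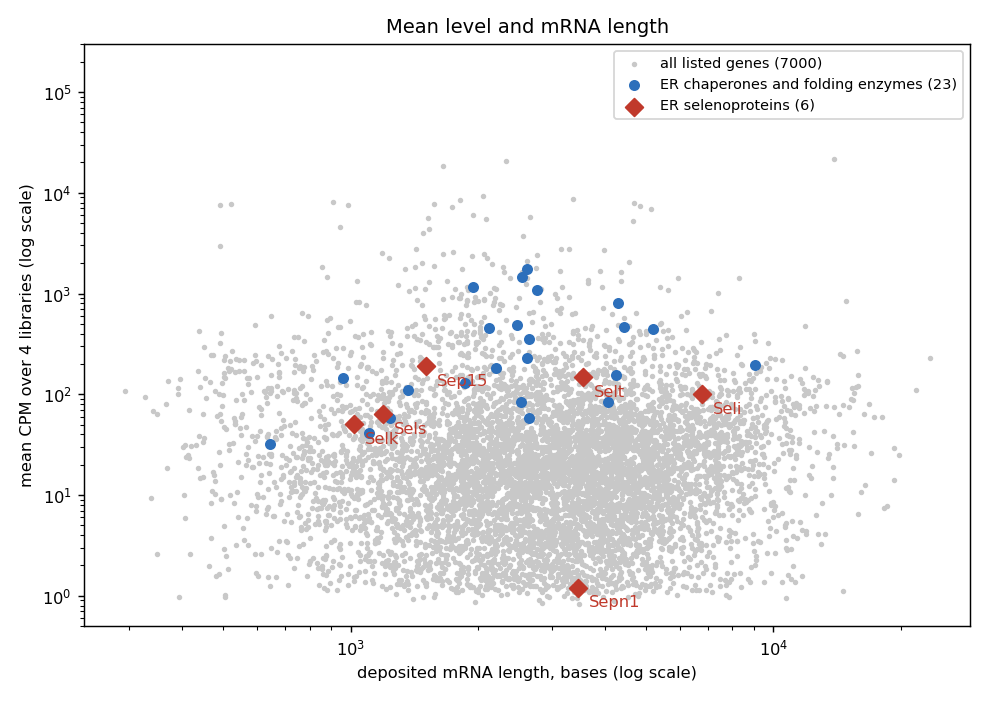
Mean CPM over the 4 libraries is plotted against the deposited mRNA length, both on log axes, for all 7000 listed genes (grey), 23 ER chaperones and folding enzymes (blue) and the 6 ER selenoproteins (red diamonds). Seli and Selt reach mean levels of 101 and 149 CPM with mRNAs of 6769 and 3546 bases, while Selk and Sels have 50.5 and 63.7 CPM from mRNAs of 1018 and 1191 bases.

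The order of Selt, Seli, Sels and Selk depended on the scale. Per kilobase of coding sequence, taken from the annotated transcript, Sep15 had 386 CPM, Selt 254, Selk 177, Sels 111, Seli 84.0 and Sepn1 0.720 CPM per kilobase. Selt thus followed Sep15 by mean CPM and by coding length but came after Sels and Selk per kilobase of mRNA, and Seli exceeded Sels and Selk by mean CPM alone. The highest and the lowest of the 6, Sep15 and Sepn1, held their places on all 3 scales. The authors counted reads over the whole mRNA, so division by coding length alone raises mRNAs with long untranslated regions most. The 3′ untranslated region made up 78.2% of the Selt transcript and 78.5% of the Seli transcript. Their values on the coding scale are therefore raised by its definition.

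**Figure D3:**
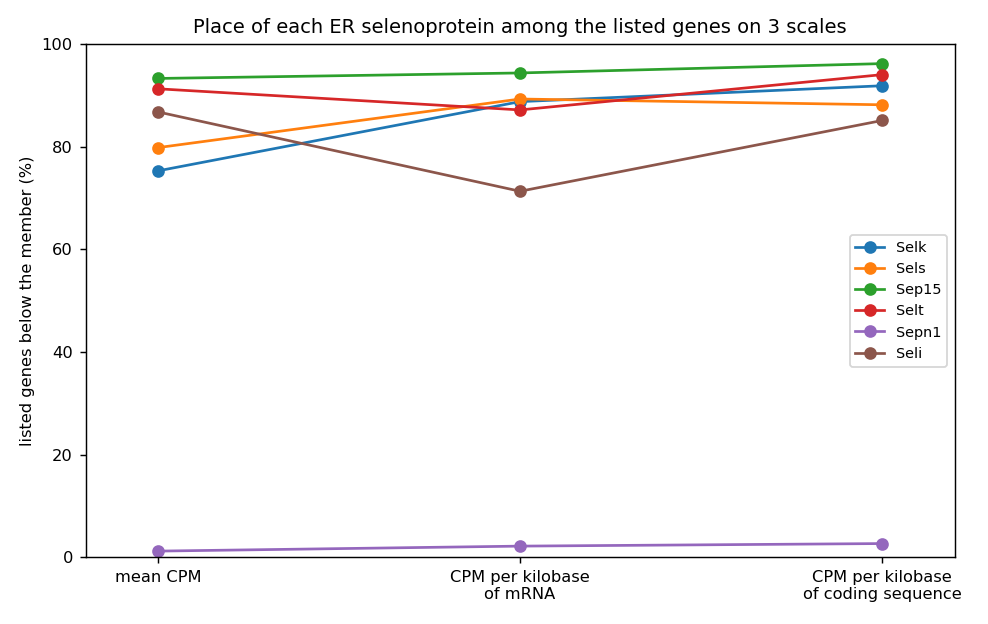
Each line follows 1 ER selenoprotein over 3 scales, mean CPM, CPM per kilobase of mRNA and CPM per kilobase of coding sequence, with the percentage of listed genes below it on the vertical axis. Sep15 stays at or above 93.3% and Sepn1 near the bottom on every scale, while Seli falls from 86.8% to 71.3% when the whole mRNA length is divided out.

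Reads that fit more than 1 mRNA were not counted, so shared sequence would lower a level. No 50-base stretch of Selk, Sels, Sep15, Sepn1 or Seli occurred in a coding transcript of another gene, and 3 of the 3108 stretches of Selt did. Sep15 overlaps a small nucleolar RNA gene and Seli a pseudogene, each on the opposite strand, and the other 4 genes overlap no annotated gene.

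The ER selenoproteins were set against 26 genes for ER chaperones and folding enzymes, of which 23 are listed. All 23 lay above the median of the listed genes, from 20.7 CPM per kilobase for Dnajc10, a disulfide reductase, to 677 for Hspa5 (BiP), the main luminal Hsp70. Dnajc3, a co-chaperone of Hspa5, was in the middle with 85.7 CPM per kilobase. The median log2 CPM per kilobase was 5.51 for the 6 selenoproteins, 6.42 for the chaperones and 2.63 for all listed genes, a difference of -0.91 between selenoproteins and chaperones. Per kilobase of mRNA, Sep15 lay below 9 of the 23 chaperones, Sels below 15, Selk below 16 and Selt below 17, and Seli and Sepn1 lay below all 23. These counts depended on the scale. By mean CPM, 12 chaperones were above Sep15, 14 above Selt, 17 above Seli, 19 above Sels and 21 above Selk. Per kilobase of coding sequence, 5 were above Sep15, 9 above Selt, 14 above Selk, 15 above Sels and 17 above Seli. Sep15 thus lay above the middle chaperone on both scales divided by length and below it by mean CPM. Selt passed the middle chaperone only per kilobase of coding sequence, the scale that raises mRNAs with long untranslated regions. Seli lay below all 23 only per kilobase of mRNA, and Sepn1 lay below all 23 on each of the 3 scales. The size of this gap rested on how the lists were summarised. It was -2.25 with means in place of medians, in which Sepn1 weighs more, and -3.09 against the 7 chaperones whose coding sequence ends in the KDEL retrieval signal. The level of Ppib, a peptidyl-prolyl isomerase, is uncertain, since 46.8% of its 50-base stretches also occur in Snx22.

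**Figure D4:**
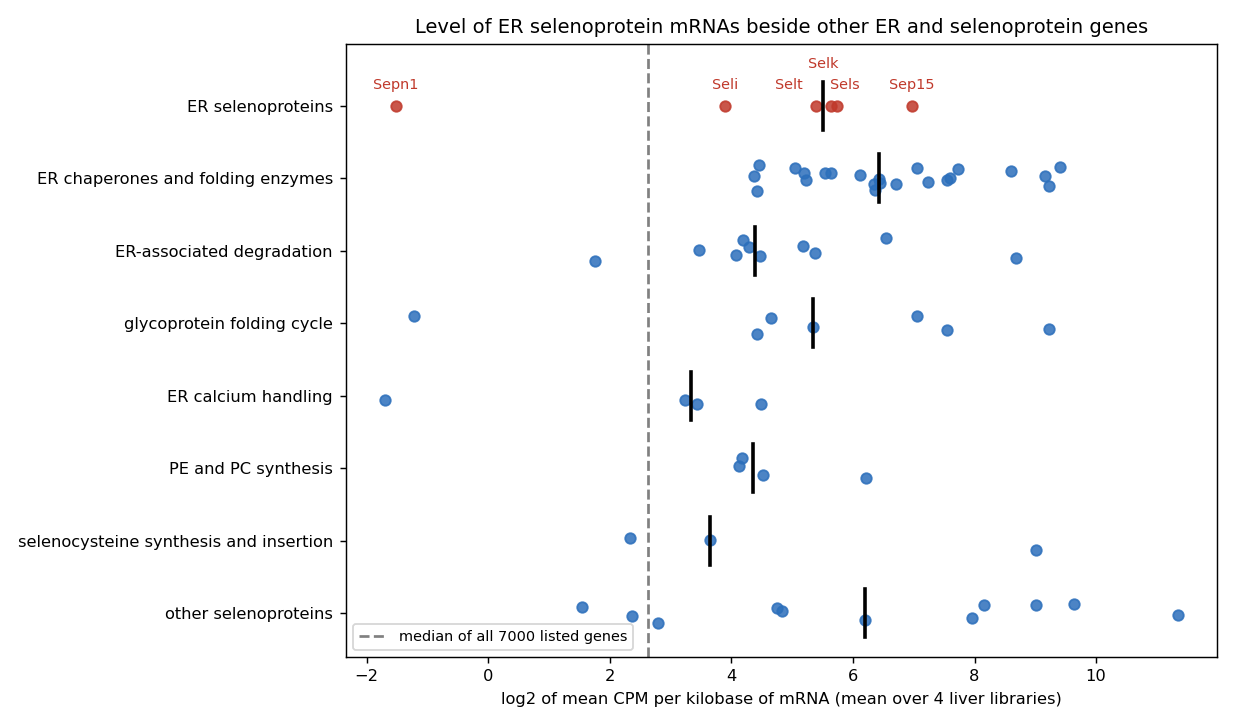
Each point is the log2 of mean CPM per kilobase of mRNA for 1 listed gene, with the 6 ER selenoproteins in red and 7 other gene lists in blue, a black bar at the median of each list and a dashed line at the median of all 7000 listed genes (2.63). Sep15 lies among the chaperones, whose median is 6.42, Sels, Selk and Selt lie in their lower part, and Sepn1 lies at -1.51, left of the dashed line.

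Selk and Sels work in ER-associated degradation, and their place among the listed genes of that process turned with the scale. Of 20 such genes 10 are listed, from 3.37 CPM per kilobase for Derl3 to 409 for Herpud1, with a median log2 CPM per kilobase of 4.38 and Edem3 as the middle gene at 19.6 CPM per kilobase. Per kilobase of mRNA, Selk (49.6) and Sels (53.5) each lay above 8 of the 10, whereas by mean CPM Selk lay above 3 and Sels above 4. Derl2, a Derlin to which they can bind, had 36.1 CPM per kilobase, so that the ratio was 1.37 for Selk and 1.48 for Sels. By mean CPM the order was the opposite, with 131 CPM for Derl2 and ratios of 0.386 and 0.487. Against Derl3, another Derlin, the ratios per kilobase were 14.7 and 15.9. The paper lists Derl3 among the liver mRNAs that rose most with adequate Se, so its mean also covers unlike diet groups. Whether these ratios held within either diet was not tested. Sels was 4.82 times the level of Syvn1 (HRD1), the ubiquitin ligase of the complex, per kilobase and 1.65 times by mean CPM. Derl1, Vcp and Zdhhc6, the acyltransferase that works with Selk, are not among the listed genes.

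For Sep15, the luminal partner Uggt1 had 21.5 CPM per kilobase, and Sep15 was 5.81 times as high. The paralog Uggt2 was listed at 0.429 CPM per kilobase. On the mean CPM scale, which is not divided by length, Sep15 (189 CPM) and Uggt1 (195 CPM) were nearly level, since the Uggt1 mRNA is 9029 bases long. In the glycoprotein folding cycle as a whole 7 of 8 genes are listed. The lectin chaperones Calr and Canx had 596 and 188 CPM per kilobase and their oxidoreductase partner Pdia3 had 132, all above Sep15, whereas the glucosidase genes Prkcsh (40.4) and Mogs (25.1) were below it.

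Sepn1 was the only ER selenoprotein below the median listed gene. Of the 7 calcium handling genes, 4 are listed, and Sepn1 at 0.350 CPM per kilobase lay close to Itpr3 (0.309) and below Itpr1 (10.8), Itpr2 (9.47) and Tmco1 (22.4), which encode calcium channels of the ER membrane. The oxidoreductase Ero1lb had 36.6 CPM per kilobase, 105 times the level of Sepn1. The authors kept genes above 1 CPM in 3 or more libraries, and the Sepn1 mean of 1.21 CPM lies close to that limit. The calcium pump gene Atp2a2 is not among the listed genes.

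Seli makes phosphatidylethanolamine from CDP-ethanolamine. Its 14.9 CPM per kilobase were close to the 17.5 of Etnk1, the ethanolamine kinase that starts the same route, a ratio of 0.848. Chpt1, which performs the corresponding last step for phosphatidylcholine, had 73.9 CPM per kilobase, 4.97 times the level of Seli, and by mean CPM Seli was at 0.420 of Chpt1. Pcyt1a (23.0) and the mitochondrial decarboxylase gene Pisd (18.1) were also above Seli. The 4 listed genes of the 11 in this list thus exceeded Seli per kilobase, but by mean CPM Pisd (38.9 CPM) lay below Seli (101 CPM). Pcyt2 and Cept1 are not listed.

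Of 18 other selenoprotein genes 11 are listed, from 2.91 CPM per kilobase for Txnrd3 to 2601 for Sepp1, the plasma Se carrier. Of these 11, 5 were above Sep15, and 6 were above Sels, Selk and Selt alike per kilobase. By mean CPM, 5 were above Sep15 and Selt, 6 above Seli and 7 above Sels and Selk. Dio1, the hepatic deiodinase, was in the middle at 73.7 CPM per kilobase. The ER selenoproteins lay below Gpx1 (797), Sephs2 (519), Msrb1 (286) and Gpx4 (249). Txnrd1 (26.9) and Sepw1 (28.4) fell between Selt and Seli per kilobase, and below Seli by mean CPM (97.8 and 20.0 CPM). The paper names Gpx1 and Sepw1, like Selk, among the mRNAs that rose most with adequate Se. Their means thus also cover unlike diet groups, and their places within either diet were not tested. Selm, a further ER selenoprotein, is not among the listed genes. Of the machinery that makes and inserts selenocysteine, 3 of 7 genes are listed. The SECIS-binding factor Secisbp2 had 5.04 CPM per kilobase and Trnau1ap 12.6, both below 5 of the 6 ER selenoproteins, and Sephs2, itself a selenoprotein, was above all 6.

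Sequence features that the choice of genes did not use are given beside those of the chaperones, as a description of 6 genes with no test. The coding sequences of 7 of the 23 chaperones, such as Hspa5, Calr and P4hb, end in codons for KDEL, and 0 of the 6 ER selenoproteins do. Promoters were taken from RefSeq on GRCm38.p6, from 250 bases before to 50 bases after each start, for all 6 ER selenoproteins and 20 chaperones, and each motif was sought on both strands. The ER stress response element ERSE (CCAAT, then 9 bases of any kind, then CCACG) was found in 8 of 20 chaperone genes, in 0 of 6 ER selenoprotein genes and in 0.137% of all 27025 genes with a promoter. Its relative ERSE-II (ATTGG, 1 base, CCACG) and the unfolded protein response element TGACGTGG were each found in 1 of 20 chaperone genes and 0 of 6 selenoprotein genes, compared with 0.0444% and 0.714% of all genes. The CCAAT box, which is also part of ERSE, was found in 4 of 6 selenoprotein genes (Selk, Sels, Sep15 and Seli), 17 of 20 chaperone genes and 41.1% of all genes, and the GC box GGGCGG in 5 of 6 (all but Selt), 17 of 20 and 38.2%. These are matches of letters in a fixed window. Most of the chaperone genes had no ERSE match either, so 0 of 6 does not show that the selenoprotein promoters lack a working element.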

How the data were processed

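The authors sequenced liver RNA of 2 mice per diet after removal of ribosomal RNA, placed the reads with Bowtie on 1 RefSeq mRNA per gene (mm9, the longest isoform), keeping unique matches with up to 2 mismatches, and ran edgeR on genes above 1 CPM in 3 or more libraries. Tool versions: not given in the sources used here. Deposited log2 values are the authors' edgeR means of CPM over all 4 libraries. The other deposited columns, a fold change, a p-value and an FDR of the authors' comparison of the diets, were not used. No test was made, since 0 columns of single mice were at hand. Without counts per library the depth is unknown, and no interval could be given.

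Mean CPM was divided by the deposited mRNA length, with no filter and no pseudocount. Transcripts came from GENCODE vM1, the one nearest in length for each gene. Of the listed genes 6933 had one, 88.4% of them within 10% of the deposited length. Ranks and codon positions were tested on simulated data. Partner genes come from general knowledge. The sequence around the selenocysteine codon of Sepn1 is not reported here. Of 138 entries in the gene lists 85 are listed, 2 by synonym. Outside the cell type markers, named genes are the members and the highest, middle and lowest of each list. The listed genes of lists of at most 11 were also named. Only some of the cell type markers were named, with no fixed rule. Derl2, Syvn1 and Ero1lb (partners), Calr, P4hb and Ppib (sequence features), and some other selenoproteins were named in addition, after values were seen. The members and lists were chosen with earlier results of these data known. Python 3.11.15, numpy 2.4.6 and pandas 2.3.3 were used.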

Additional observations from a re-analysis of the deposited data

How the results depend on the processing

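The count of ER selenoproteins above the median listed gene was 5 under each alternative run. The median gap to the chaperones on the log2 scale was -0.91 and kept its sign: it was -1.28 with no division by length, -0.79 for genes with at least 10 CPM, -3.09 against chaperones ending in KDEL, -2.25 with means, and, among alternatives chosen after seeing the data, -0.72 per kilobase of coding sequence and -0.79 without Sepn1. With no division by length the log2 levels were 7.56 for Sep15, 7.22 for Selt, 6.65 for Seli, 5.99 for Sels and 0.27 for Sepn1. Per kilobase of coding sequence they were 8.59 for Sep15, 7.99 for Selt, 7.47 for Selk, 6.80 for Sels, 6.39 for Seli and -0.47 for Sepn1. Adding 1 before the log moved Sepn1 to 0.43. The other values moved by less than 0.1. The coding length planned from a protein table was not run. No replicate could be left out. No paired analysis was possible because the values are means over all mice. At 10 CPM or more Sepn1 is left out, and with the depth unknown no error can be set on its level.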

Other observations

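The listed markers of Kupffer, sinusoidal endothelial and stellate cells were all above the level of Sepn1, from 1.03 CPM per kilobase upwards. The 6 listed Kupffer cell markers ran from 5.15 CPM per kilobase for Marco to 74.8 for Clec4f. The 4 listed sinusoidal endothelial markers ran from 8.52 for Pecam1 to 76.9 for Clec4g. The 5 listed stellate cell markers ran from 1.03 for Col1a1 to 98.3 for Dcn. The paper lists Col1a1 among the liver mRNAs that fell most with adequate Se, so its mean covers unlike diet groups. Of the bile duct markers 1 of 5 is listed, Spp1 at 16.5 CPM per kilobase, and of the pancreatic acinar markers 1 of 4, Cela1 at 28.0. In whole liver the cells that hold an mRNA cannot be told apart, and fewer cells of a type cannot be told from less RNA per cell.

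The conversion of symbols to dates was not limited to Sep15. Among the listed symbols 11 have the form of a date, and 15-Sep, with 1509 bases and 189 CPM, has the highest level of the 11. The other 10 were not matched to genes here.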
